A study of Arabidopsis thaliana with 3 samples.

Results

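The mitochondrial genome loci of Arabidopsis thaliana were the 67 loci whose code starts with ATMG in the deposited annotation, of 29030 loci with a spot on the arrays. They were chosen by locus code alone and not by their values. They comprised 13 loci for respiratory chain and ATP synthase subunits, 4 for ribosomal proteins, 2 for cytochrome c maturation and 2 for ribosomal RNAs. These 21 are called loci with a product below. The other 46 loci, whose annotation matched none of these products, are called open reading frames. No class was made for a maturase or other known proteins, so any such locus would be among the 46. The deposited annotation gave these names, and no mitochondrial locus code was found in the RefSeq gene table used for nuclear genes. Of the 67 loci, 61 had 1 spot, 5 had 2 spots and 1 had 3 spots, 74 spots in all. All 67 loci had values on all 3 arrays and no filter on low values was applied, so every member entered the test.

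Plants of the mutant pfd4 and of the wild type Col-0 were 2 weeks old, had been grown at 22 °C with 16 h of light followed by 8 h of night each day, and all had been held at 4 °C for 24 h before RNA was taken. The mutant affects PFD4, a subunit of prefoldin, the cytosolic chaperone that passes unfolded actin and tubulin to the chaperonin; the nature of the allele, any pooling of plants and the priming of the amplified RNA were not given in the sources used here. Each of 3 dual-colour arrays took RNA of both genotypes, with pfd4 in Cy3 and Col-0 in Hyper5 on arrays 1 and 2 and the reverse on array 3. The arrays are called biological replicates in the labels, which do not say what was kept separate, so the spread between arrays may be partly technical. The description of each array calls it replicate 1, and the numbers 1, 2 and 3 used here, and with them n = 3, were taken from the array titles. Plants left at 22 °C were not among the samples, so the contrast is between genotypes after cold, without any measure of the response to cold. Each value is a ratio on a log scale, read as log2 although its base is not stated, with pfd4 as the likely numerator and Col-0 as the denominator, a direction that was read from the PFD4 transcript (AT1G08780), which lay at -3.08, -2.71 and -2.17 on the 3 arrays. With the opposite numerator every direction below would turn, and with another base every fold would differ. A ratio holds no level of a transcript, so no gene is ranked against another by abundance, and fewer mitochondria, fewer cells and less RNA per cell cannot be told apart.

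Plant mitochondria keep a small genome that encodes a minority of the subunits of the respiratory chain and of ATP synthase, part of the mitochondrial ribosome, and proteins that attach haem to cytochrome c. The remaining subunits of the same complexes are encoded in the nucleus and imported, so each complex is built from the products of both genomes. Mitochondrial genes are transcribed by phage-type RNA polymerases encoded in the nucleus, and their transcripts pass through intron splicing and C-to-U editing before translation. In Col-0, chromosome 2 carries a large insertion of mitochondrial DNA near its centromere, so many mitochondrial genes have a near-identical nuclear copy.

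No mitochondrial transcript was called higher or lower in pfd4 than in Col-0 by limma's test with Benjamini-Hochberg adjustment over all loci, at a threshold of 0.05. That test passed 0 of 67 mitochondrial loci, against 0 of all 29030 loci (0%). PFD4 itself, with a mean of -2.65, did not pass it (limma's adjusted p = 0.887). The lack of calls therefore does not show that mitochondrial transcripts were unchanged. At an unadjusted p under 0.05 it held 0 of the 67, where 4.73% of all loci passed, 2.14% as higher and 2.58% as lower in pfd4. The smallest limma p among them was 0.086, for the open reading frame ATMG01240 (adjusted p = 0.887). The means over the 3 arrays ran from -0.44 for the 18S ribosomal RNA to 0.36 for ATP9. These plain means take 2 arrays with pfd4 in Cy3 and 1 with exchanged dyes. With a dye term in the fit the 2 values were -0.225 and -0.0475, so ATP9 changed sign. Of the 67 means, 25 lay above 0, 41 below 0 and 1 at 0, and their median was -0.04, where the median over all loci was 0.01. For 58 of the 67 loci the 95% confidence interval of the mean, from limma's moderated variance, lay within a 2-fold difference in either direction. The others allowed more, the widest from -1.23 to 1.95 for ATP9.

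Of the 67 loci, 2 were higher in pfd4 on all 3 arrays (2.99%), where 12.3% of all loci were. Lower on all 3 arrays were 7 (10.4%), where 12.1% of all loci were. Each array gave a different picture of the mitochondrial transcripts. The medians over the 67 loci on arrays 1, 2 and 3 were 0.05, -0.23 and -0.01, and 51 of the 67 values on array 2 were negative. On that array 13812 of all 29030 loci were negative, and 42 of 66 chloroplast genome loci. A ratio above 0 on array 1 together with one below 0 on array 2 was found for 29 of the 67 loci (43.3%), against 17.7% of all loci. It was not particular to them, being found for 30 of 66 chloroplast genome loci (45.5%) and 20 of 36 chromosome 2 copies (55.6%). Among 45 nuclear subunits of the respiratory complexes the share was 17.8%. Array 2 also had the widest spread over all loci, with an SD of 0.55, where arrays 1 and 3 had 0.36 and 0.37.

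**Figure D1:**
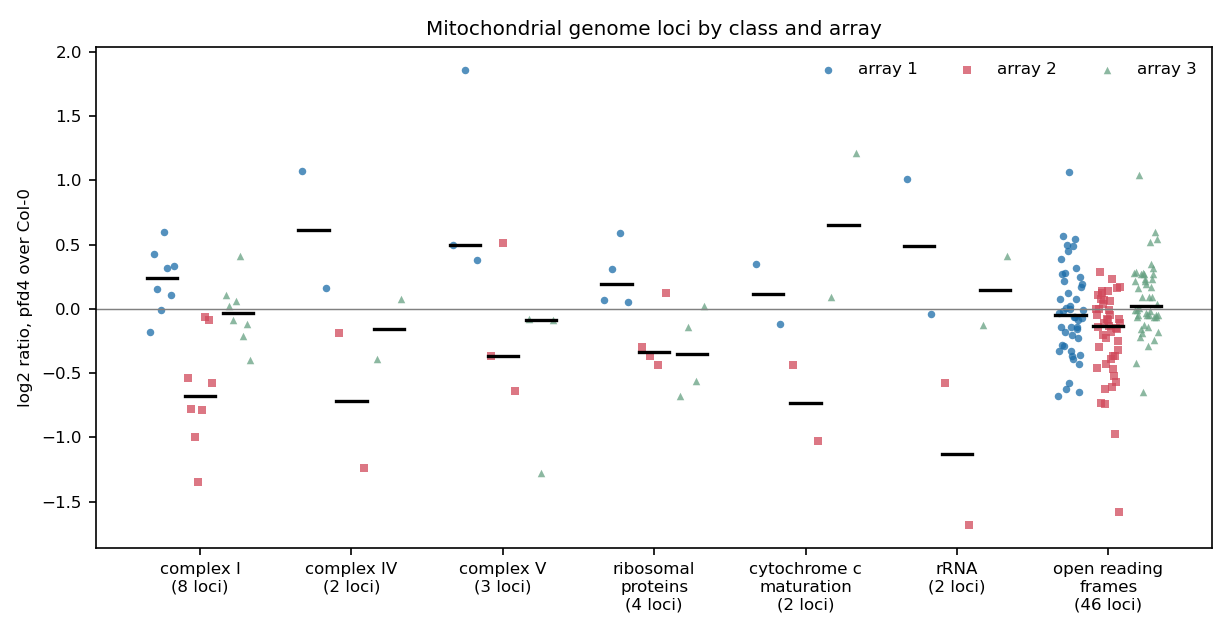
Log2 ratio of pfd4 over Col-0 (vertical axis) of each mitochondrial locus, by class and array; points are loci and black bars are class medians. The respiratory subunits of complexes I, IV and V lie mostly above 0 on array 1 and below 0 on array 2, while the 46 open reading frames have medians of -0.045, -0.135 and 0.025.

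The loci with an annotated product and the open reading frames did not look alike across arrays. The 13 respiratory loci had medians of 0.33, -0.58 and -0.09 on arrays 1, 2 and 3. On array 1, 11 of the 13 were positive and on array 2, 12 of the 13 were negative. Of all 29030 loci, 13938 were positive on array 1 and 13812 negative on array 2. Both arrays had pfd4 RNA in Cy3, and the cause of the difference between them was not tested. None of the 13 kept one sign on all 3 arrays. The mean of the 3 array medians was -0.11 ± 0.46 (SD, n = 3), so the spread between arrays exceeded the shift from 0. The 46 open reading frames had medians of -0.045, -0.135 and 0.025. The difference between the 2 medians, respiratory minus open reading frames, was 0.375, -0.445 and -0.115, and its mean of -0.06 ± 0.41 (SD, n = 3) was smaller than its spread. The SD of a locus over the 3 arrays had a median of 0.61 among the respiratory loci and 0.26 among the open reading frames, where it was 0.26 over all loci.

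Complex I, NADH dehydrogenase, passes electrons from NADH to ubiquinone and pumps protons across the inner membrane. Its 8 loci had medians of 0.24, -0.68 and -0.04 on arrays 1, 2 and 3, and 6 of the 8 lay between -1.35 and -0.535 on array 2. NAD3 (ATMG00990), a membrane arm subunit, had 0.60, -0.79 and 0.41 on arrays 1, 2 and 3. NAD4 (ATMG00580), a proton-pumping subunit, had 0.155, -0.995 and -0.09. Its 2 spots gave -0.90 and -1.09 on array 2, but -0.51 and 0.33 on array 3. Array 2 was thus the low one for both genes, and the spots of NAD4 differed in sign on array 3. NAD4L (ATMG00650), another membrane arm subunit, had -0.01, -1.35 and 0.06. Its mean was -0.43 ± 0.79 (SD, n = 3; limma's 95% interval from -1.28 to 0.41), and without array 2 it was 0.025. NAD5 (ATMG00060), a proton-pumping subunit, had -0.18, -0.535 and 0.105, with the lowest value again on array 2. NAD9 (ATMG00070), a subunit of the peripheral arm, had 0.43, -0.78 and 0.02.

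The deposited annotation listed 3 further complex I loci as trans-spliced subunits of mitochondrial NAD(P)H dehydrogenase. In trans-splicing, exons transcribed from separate parts of the genome are joined into 1 messenger RNA, so these loci each stand for a piece of a gene. ATMG01120 had 0.32, -0.06 and -0.21 on arrays 1, 2 and 3, and ATMG01275 had 0.11, -0.09 and -0.12. Both stayed nearer to 0 on array 2 than the NAD loci above. ATMG01320 had 0.33, -0.58 and -0.40, lower than both on arrays 2 and 3.

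Complex IV, cytochrome c oxidase, reduces oxygen at the end of the chain. COX1 (ATMG01360), its catalytic subunit, had 0.16, -1.24 and 0.08 on arrays 1, 2 and 3, so 1 array carried its mean of -0.33 ± 0.79 (SD, n = 3). COX2 (ATMG00160), which receives electrons from cytochrome c, had 1.07, -0.19 and -0.39, so here array 1 stood out, at 2.10-fold. These 2 subunits of one enzyme therefore departed from 0 on different arrays.

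Complex V, ATP synthase, makes ATP from the proton gradient. ATP9 (ATMG01080), the subunit of the rotating ring, had 1.86, 0.51 and -1.28 on arrays 1, 2 and 3. That is 3.63-fold higher in pfd4 on array 1 and 2.43-fold lower on array 3, and the mean of 0.36 ± 1.58 (SD, n = 3) had the largest SD of the 67 loci. ATP9 was positive on both arrays with pfd4 in Cy3 and negative on the array with exchanged dyes. ATP6 (ATMG01170), the proton channel subunit, had 0.38, -0.64 and -0.09. The stator b subunit (ATMG00640) had 0.50, -0.37 and -0.08, the same order as ATP6 with a smaller range.

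**Figure D2:**
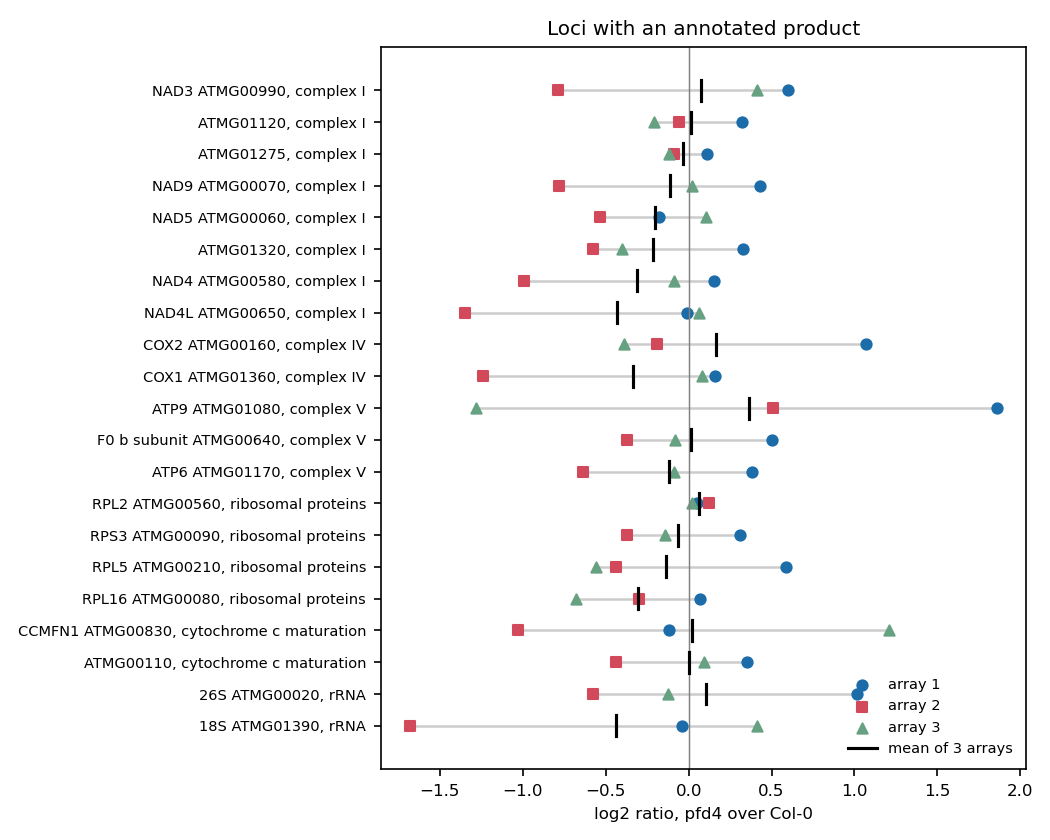
Log2 ratio of pfd4 over Col-0 (horizontal axis) of the 21 mitochondrial loci with an annotated product on each array (coloured points), with the mean of the 3 arrays (black bar) and the range (grey line). RPL2 alone stays on one side of 0 on all 3 arrays, at 0.05, 0.12 and 0.02, and ATP9 spans from -1.28 to 1.86.

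The ribosomal protein loci had medians of 0.19, -0.34 and -0.35 on arrays 1, 2 and 3. RPL2 (ATMG00560), a protein of the large subunit near the site of peptide bond formation, had 0.05, 0.12 and 0.02, the smallest range of the 21 loci with a product. RPL5 (ATMG00210), of the large subunit, had 0.59, -0.44 and -0.56. RPL16 (ATMG00080), also of the large subunit, had 0.07, -0.30 and -0.68, and its mean of -0.30 ± 0.38 (SD, n = 3) gave the smallest limma p of the 21, an unadjusted 0.163. RPS3 (ATMG00090), of the small subunit, had 0.31, -0.37 and -0.14. RPL5, RPL16 and RPS3 were each positive on array 1 and negative on arrays 2 and 3. The respiratory minus the ribosomal median was 0.14, -0.245 and 0.26, with a mean of 0.05 ± 0.26 (SD, n = 3), so the classes did not differ beyond the spread between arrays.

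Cytochrome c maturation proteins deliver haem to apocytochrome c and join them. CCMFN1 (ATMG00830), part of the haem ligation machinery, had -0.12, -1.03 and 1.21 on arrays 1, 2 and 3. It was the highest of the 67 loci on array 3 and among the low ones on array 2, and its mean was 0.02 ± 1.13 (SD, n = 3). ATMG00110, annotated as a mitochondria-encoded cytochrome c biogenesis protein, had 0.35, -0.44 and 0.09, which averaged to 0. The 3 nuclear partners changed sign between arrays as well. G1 (AT3G51790), the haem chaperone CCME, had 0.65, -0.14 and -0.26 on arrays 1, 2 and 3. ABCI1 (AT1G63270), the ATP-binding subunit CCMA of the transporter, had 0.06, -0.40 and -0.14.

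The ribosomal RNAs, named here after their values were seen, also departed on single arrays. The 18S ribosomal RNA (ATMG01390), the RNA of the small ribosomal subunit, had -0.04, -1.68 and 0.41 on arrays 1, 2 and 3. Its value on array 2 was the lowest of all 67 loci, 3.20-fold lower in pfd4. The 26S ribosomal RNA (ATMG00020), the RNA of the large subunit, had 1.01, -0.58 and -0.12 as the mean of 3 spots. Those spots had the same sign on arrays 1 and 2, but 0.32, -1.20 and 0.51 on array 3.

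Among the 46 open reading frames, 17 means lay above 0 and 29 below 0, and 1 was higher and 7 lower on all 3 arrays. The 7 lower ones are 15.2% of the open reading frames, where 12.1% of all loci were lower on all 3 arrays. ATMG01240, which had the smallest p, had -0.43, -0.16 and -0.24 on arrays 1, 2 and 3 and a mean of -0.28 ± 0.14 (SD, n = 3; limma's 95% interval from -0.61 to 0.06). ATMG01290 had -0.36, -0.25 and -0.06, and ATMG00880 had -0.37, -0.05 and -0.14. In all 3 the ratio was lowest on array 1, where 26 of the 46 open reading frames were negative and 19 positive. Of all 29030 loci, 14704 were negative and 13938 positive on that array. ATMG01230 had -0.23, -0.15 and -0.06. ATMG00630 had -0.62, -0.11 and 0.09, and ATMG00940 had -0.39, -0.18 and 0.09. These last 2 were negative only on arrays 1 and 2.

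The open reading frames with positive means and the smallest p were nearer to 0 or moved apart between arrays. ATMG00400 had 0.22, 0.12 and 0.01 on arrays 1, 2 and 3, the one open reading frame positive on all 3. ATMG00130 had 0.39, 0 and -0.01, and ATMG01400 had 0.19, 0.17 and -0.05. Neither was positive on all 3 arrays. ATMG00280 had the highest mean of the open reading frames, 0.29 ± 0.92 (SD, n = 3), from 0.57, -0.73 and 1.04. ATMG00260 had -0.02, 0.08 and 0.16, and ATMG00050 had 0.08, -0.14 and 0.29. Another pair was singled out after its values were seen, because it resembled loci with a product. ATMG01370 had -0.07, -1.58 and 0.54, near the 18S ribosomal RNA on each array. ATMG00690 had 1.065, -0.425 and -0.125 as the mean of 2 spots, near the mean of the 26S ribosomal RNA spots. Its spots gave 0.67 and 1.46 on array 1, -0.69 and -0.16 on array 2, and 0.11 and -0.36 on array 3. On array 3 the spots of both loci thus differed in sign.

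**Figure D3:**
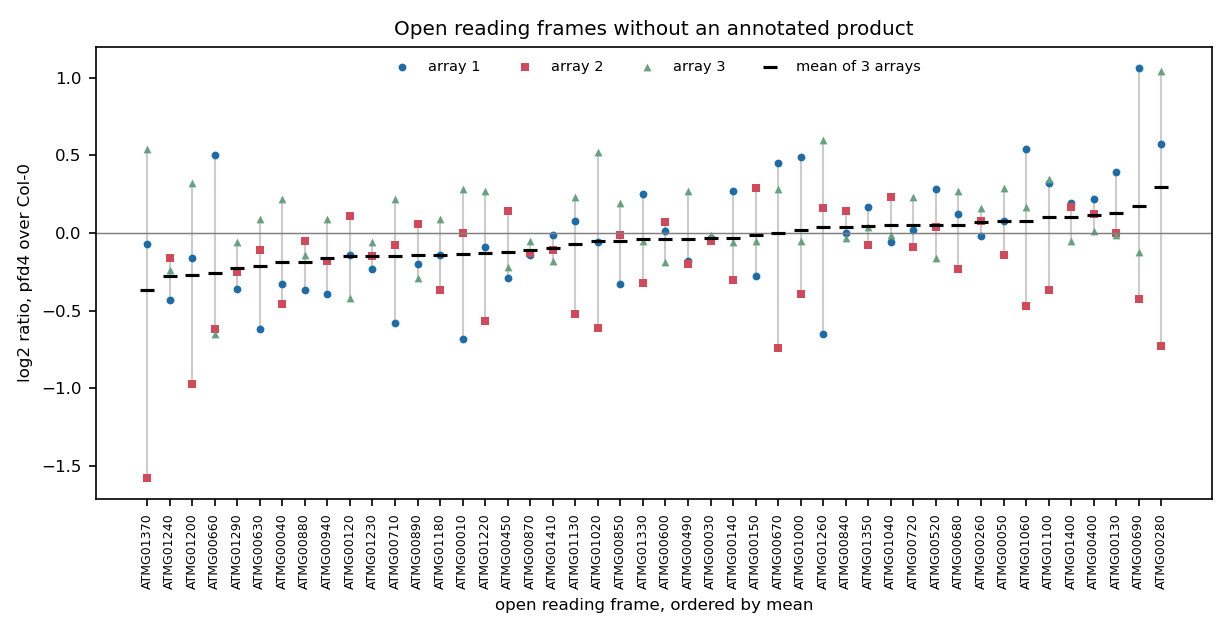
Log2 ratio of pfd4 over Col-0 (vertical axis) of the 46 open reading frames on each array (coloured points), ordered by the mean of the 3 arrays (black dashes), with the range (grey line). Most means lie close to 0, and the widest ranges belong to ATMG01370, from -1.58 to 0.54, and ATMG00280, from -0.73 to 1.04.

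The spread of ratios that spots give without a plant target was read from 757 control spots, 604 named dark corner and 153 named negative control in the annotation. The range between their percentiles 2.5 and 97.5 was from -0.24 to 0.45 on array 1, from -0.36 to 0.29 on array 2 and from -0.31 to 0.33 on array 3. Of the 46 open reading frames, 20 lay inside this range on all 3 arrays (43.5%), as did 38.1% of all loci. Of the 21 loci with a product, 3 did (14.3%), namely RPL2, ATMG01120 and ATMG01275. On array 2, 16 of these 21 lay outside the range, and on arrays 1 and 3, 6 and 8 did. Of all 29030 loci, 8838, 11161 and 8677 lay outside it on arrays 1, 2 and 3. A ratio inside the range does not show that a transcript was absent, and no signal intensities were used here. The difference between these shares was not tested.

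**Figure D4:**
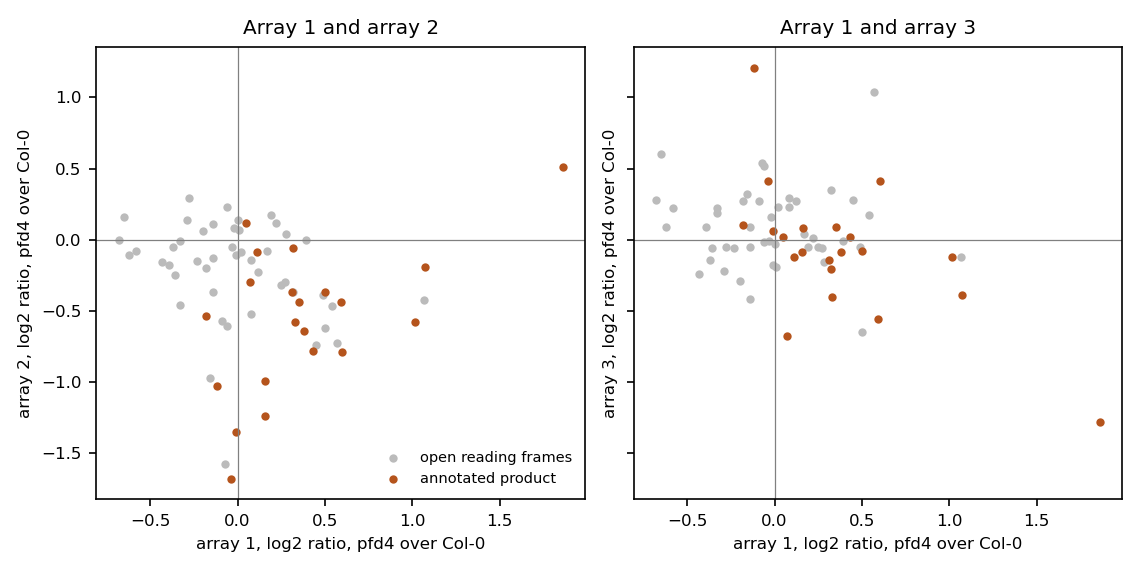
Log2 ratio of pfd4 over Col-0 of each mitochondrial locus on array 1 (horizontal axes) against array 2 (left) and array 3 (right); orange points are the 21 loci with an annotated product and grey points the 46 open reading frames. Most orange points lie in the part of the left plot that is positive on array 1 and negative on array 2, and ATP9 lies apart at 1.86 on array 1.

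Across the 67 loci the arrays did not rank the transcripts alike. Pearson's r was -0.09 between arrays 1 and 2, -0.39 between arrays 1 and 3 and -0.41 between arrays 2 and 3. Over all 29030 loci the same values were 0.40, -0.27 and -0.04. Loci of one array share its labelling and hybridisation, and the exchange of dyes separates array 3 from the other two, so these are descriptions and not independent points. Without ATP9, a setting added after the data were seen, r over the remaining 66 loci was -0.24, -0.21 and -0.35.

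The chromosome 2 copies of mitochondrial genes were read beside them. Probe sequences were not used here, so it is not known which of these spots bind the mitochondrial transcript, the nuclear one or both. There were 36 such loci with 43 spots. The 16 of them with an annotated product other than an uncharacterized protein or a pseudogene had medians of 0.24, -0.21 and 0.03 on arrays 1, 2 and 3, and the other 20 had 0.01, -0.13 and 0.03. The copy of COX3 (AT2G07687), the third core subunit of complex IV, had -0.10, -1.22 and 0.24, with array 2 low as for COX1. The copy of cytochrome b (AT2G07727), the mitochondrial subunit of complex III, had 0.44, -0.32 and -0.02. A second cytochrome b locus (AT2G07718) had 0.37, -0.98 and -0.80. The copy of the ATP synthase alpha subunit (AT2G07698), of the catalytic head, had 1.37, 0 and -1.32, high on array 1 and low on array 3 as ATP9 was. The copy of ATP synthase protein YMF19 (AT2G07707) had 1.34, -0.43 and -0.48, again highest on array 1. These 5 copies and those of RPS12, RPS4 and RPS7 were named after their values were seen, since their genes have no mitochondrial locus among the 67.

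For RPL5, COX2 and RPL2 a mitochondrial locus and a chromosome 2 copy were matched by name, and the signs were compared array by array. Copies read without a subunit name were not matched to a mitochondrial locus. Among them AT2G07671, an H+-transporting two-sector ATPase, had 0.82, -0.25 and -0.27 on arrays 1, 2 and 3. AT2G07689 and AT2G07785, read as NADH-ubiquinone oxidoreductase, had 0.07, -0.365 and 0.13, and -0.52, -0.14 and 0.08. They were named after their values were seen. For RPL5 the copy (AT2G07725) had 0.34, -0.30 and -0.39, the same signs as the mitochondrial locus on all 3 arrays. For COX2 the copy (AT2G07695) had 0.21, -0.75 and 0.21, with the sign of ATMG00160 on arrays 1 and 2 and the opposite sign on array 3. For RPL2 the copy (AT2G07715) had 0.13, -0.17 and 0.14, opposite on array 2. Of the copies, 18 were annotated as identical to an uncharacterized mitochondrial protein, and 0 of these had a spot under their own mitochondrial code.

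Genes that lie next to each other in the mitochondrial genome, as ordered in RefSeq's TAIR10.1 gene table, were set side by side, with a chromosome 2 copy standing in where a gene had no mitochondrial locus code on the arrays. Of such pairs, 9 were read, and 4 of these had the same sign in both genes on all 3 arrays. By array, 7 pairs had the same sign on array 1, 8 on array 2 and 5 on array 3, and no comparison with genes that are not neighbours was made. ATP6 and the trans-spliced loci were left out, because the table lists ATP6 at 2 places and the annotation does not name the latter. The maturase gene was left out too. Its chromosome 2 copy is annotated as a pseudogene, and no class for a maturase was made among the mitochondrial loci. The copy of COX3 and NAD4L were near each other, with -0.10, -1.22 and 0.24 beside -0.01, -1.35 and 0.06 on arrays 1, 2 and 3. CCMFN1, on the other side of COX3, had the same signs but 1.21 on array 3. RPS3 and RPL16, and likewise RPL5 and the copy of cytochrome b, were positive on array 1 and negative on arrays 2 and 3. The remaining 5 pairs differed in sign on at least 1 array. NAD4L and the gene of the ATP synthase b subunit had -0.01 and 0.50 on array 1 and 0.06 and -0.08 on array 3. ATP9 and NAD3 had 0.51 and -0.79 on array 2 and -1.28 and 0.41 on array 3. RPL16 and NAD9 had -0.68 and 0.02 on array 3. NAD3 and the copy of RPS12 (AT2G07675), a protein of the small ribosomal subunit with 0.48, -0.12 and -0.42, were opposite on array 3. COX1 and the copy of RPS4 (AT2G07734), also of the small subunit with -0.075, -0.17 and 0.115, were opposite on array 1. The neighbouring genes of the ATP synthase alpha subunit and RPS7, each with a chromosome 2 copy, were not among the 9 pairs. Their copies (AT2G07698 and AT2G07696) had 1.37, 0 and -1.32 beside -0.43, 0.03 and 0.23 on arrays 1, 2 and 3. Loci read only as cytochrome c biogenesis proteins, such as ATMG00110, were not paired either.

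**Figure D5:**
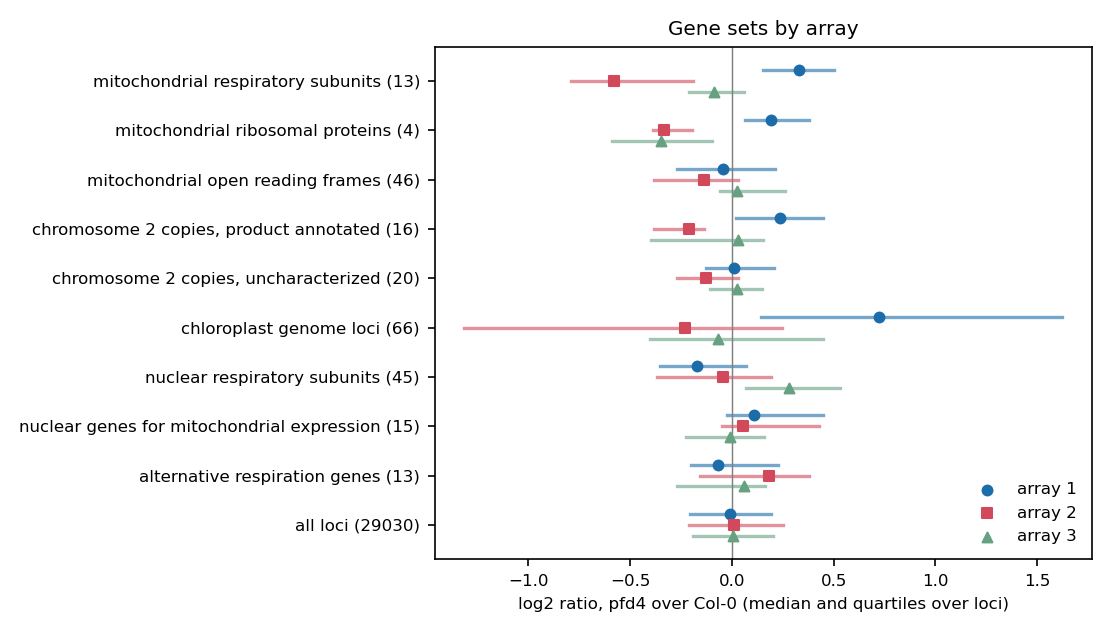
Median (points) and quartiles (lines) over loci of the log2 ratio of pfd4 over Col-0 (horizontal axis) for mitochondrial classes, related gene sets and all loci on each array; the number of loci stands in brackets. The mitochondrial respiratory subunits lie at 0.33, -0.58 and -0.09 and the nuclear subunits of the same complexes at -0.17, -0.045 and 0.28.

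Genes of the nucleus that work with the mitochondrial genome were described from 4 lists, and none of their members passed limma's test after adjustment over all loci. The 45 nuclear subunits of the respiratory complexes had medians of -0.17, -0.045 and 0.28 on arrays 1, 2 and 3. The mitochondrial respiratory median minus this nuclear median was 0.50, -0.535 and -0.37, with a mean of -0.14 ± 0.56 (SD, n = 3), which is within the spread between arrays. Of the 45, 6 were higher and 0 lower on all 3 arrays, against 12.3% and 12.1% of all loci, and 0 had an unadjusted limma p under 0.05. EMB1467 (AT5G37510), a complex I subunit of the peripheral arm, had -0.835, -0.62 and 0.07. AT5G57815, a small subunit of complex IV, had 0.33, 0.46 and 0.08 and was positive on all 3 arrays.

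The 15 nuclear genes for mitochondrial gene expression, which serve transcription, splicing, editing and other RNA processing, had medians of 0.11, 0.055 and -0.01 on arrays 1, 2 and 3. The polymerase gene RPOTM (AT1G68990), whose product transcribes most mitochondrial genes, had -0.06, -0.08 and 0.24. RPOTMP (AT5G15700), a polymerase of both organelles, had 0.53, 0.59 and -0.01, with an unadjusted limma p of 0.086. AT4G31010, a factor for splicing of mitochondrial introns, had 0.49, 1.01 and -0.05. Both of these were positive on arrays 1 and 2 and close to 0 on the array with exchanged dyes.

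The 13 alternative respiration genes encode routes that pass electrons without pumping protons, together with an uncoupling protein, and had medians of -0.07, 0.18 and 0.06 on arrays 1, 2 and 3. NDC1 (AT5G08740), an alternative NAD(P)H dehydrogenase, had 0.22, 0.75 and 0.16, positive on all 3 arrays, with an unadjusted limma p of 0.078. AOX1D (AT1G32350), an alternative oxidase, had -0.125, -0.255 and -0.485, negative on all 3, with an unadjusted limma p of 0.090. AOX1A (AT3G22370), the alternative oxidase known for induction when mitochondrial electron transport is blocked, had 0.35, -0.16 and -0.06.

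The chloroplast genome, the other organelle genome of the plant, was set beside the mitochondrial loci. The 66 chloroplast loci had medians of 0.725, -0.23 and -0.07 on arrays 1, 2 and 3, so array 1 was highest and array 2 lowest there too. Of them 12 were higher (18.2%) and 10 lower (15.2%) on all 3 arrays, against 12.3% and 12.1% of all loci. The 67 mitochondrial loci had 2 and 7. The mitochondrial minus the chloroplast median was -0.675, 0 and 0.06, with a mean of -0.21 ± 0.41 (SD, n = 3). Markers of other organs were read as ratios only, so the tissue could not be checked against levels. The 7 root markers had medians of 0.20, -0.27 and 0.32, the 5 flower markers -0.22, -0.27 and -0.09, and the 4 markers of senescing leaves -0.32, 0.20 and -0.22. The root median had the sign of the mitochondrial median on arrays 1 and 2 and the opposite sign on array 3. Of the 7 root markers, 5 were positive on array 1, 6 were negative on array 2 and 4 were both. Their part in the result was not tested.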

How the data were processed

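Log ratios, taken here as log2, were deposited by the authors, 1 per spot and array and already normalized; per the submitters' processing notes limma was used, while its version, background correction and normalization were not given in the sources used here. No base of the logarithm is stated, and 2 was assumed, as limma writes it. Both deposited tables held equal values at all 45220 spots, of which 38613 carried a locus code and 6607, controls among them, did not and were left out of the tests. Where a locus had several spots, their mean on an array was used. Total counts do not exist for arrays, and 3 arrays limit the precision.

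Each locus was tested with limma 3.58.1 in R 4.3.3 (lmFit and eBayes, mean of 3 ratios against 0, two-sided, 2 residual and 2.68 prior degrees of freedom), adjusted by Benjamini-Hochberg over all 29030 loci; the procedure was tested on simulated data. Errors are SDs over arrays. Symbols of nuclear genes came from the annotation and from RefSeq's TAIR10.1 table, which held 28595 of the loci. Neither coordinates nor sequences are printed, the array's genome build being not given in the sources used here. Summaries were made with Python 3.11.15, pandas 2.3.3, numpy 2.4.6 and matplotlib 3.10.9.

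Members, classes, gene lists and the naming rule were chosen with earlier results of these data known. The rule named every locus of the respiratory, ribosomal protein and cytochrome c maturation classes. A planned class of other known mitochondrial proteins, such as the maturase, was not made. Of the open reading frames and ribosomal RNAs, the 6 in each direction with the smallest limma p were named. The rule added the 2 smallest p of each nuclear list with AOX1A, RPOTM and RPOTMP, and chromosome 2 copies of named genes. Alternatives were the median or the first spot of a locus, equal array scales, array weights, a dye term, array 3 with its sign turned, the other deposited table, robust eBayes, other class limits and leaving out each array.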

Additional observations from a re-analysis of the deposited data

How the results depend on the processing

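No paired analysis was possible because the 3 arrays form 1 group, with no second group to share replicate numbers; the genotypes were already paired within each array, and limma tested that ratio. With 3 arrays no locus among the 67 passed limma's adjusted test under any alternative run. Leaving out each array in turn gave 0 to 0 passing loci, both among all loci and among mitochondrial loci, 0 to 2 higher and 0 to 2 lower mitochondrial loci at an unadjusted p under 0.05, and 4 to 15 higher and 12 to 23 lower on both remaining arrays. The median over mitochondrial loci then ran from -0.135 to 0.06, over respiratory loci from -0.365 to 0.12, complex I from -0.30 to 0.03, complex IV from -0.435 to 0.23, complex V from -0.365 to 0.21, ribosomal proteins from -0.37 to 0.025, cytochrome c maturation from -0.31 to 0.38, ribosomal RNAs from -0.49 to 0.315 and open reading frames from -0.065 to 0.015. Every one of these medians changed sign with the array left out. With the sign of array 3 turned, 1 mitochondrial locus was higher and 3 were lower at an unadjusted limma p under 0.05. On all 3 arrays, 4 were then higher and 15 lower, and the cause was not tested. The shares over all loci with array 3 turned or an array left out are not given here. These counts are therefore not read as a result about mitochondrial loci. Among 31 named loci, 217 values under alternatives other than leaving out an array held 14 changes of sign, 10 of them with array 3 turned, and the smallest adjusted p by limma was 0.235. Leaving out an array changed the sign in 19 of 93 values, and 17 of the 31 named loci changed sign at least once. The direction of these 17 thus depended on a single array. Without ATP9 the correlations between arrays over mitochondrial loci were -0.24, -0.21 and -0.35. Signal over background was not used here, so dim spots could not be set apart.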
